A study of Mus musculus with 4 samples.

Results

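The 10 genes described here were grouped as keratins and ductal epithelial genes. They are the keratins Krt8, Krt18, Krt7, Krt19 and Krt23, the surface proteins Epcam and Ly6d, the transcription factor Sox9 and the secreted proteins Spp1 and Dmbt1. They were taken by symbol from the 35275 genes of the read count table, each symbol matching 1 row, and the set was chosen by hand with its read counts and ratios in all 4 libraries already known. The values that chose it are therefore given as a description, without a test. Liver RNA of female mice carrying the amyloidogenic Apoa2c allele was sequenced in 4 groups: vehicle sedentary (VS), vehicle with interval training (VI), fibril sedentary (FS) and fibril with interval training (FI). Fibril mice had received AApoAII amyloid fibrils into a vein and vehicle mice an injection without fibrils. Training was treadmill running in alternating slow and fast bouts over 16 weeks, and all livers were taken at 26 weeks of age. The labels give the strain as AKR/J, whereas the study's methods give R1.P1-Apoa2c on the SAMR1 background. Each group is a single library made from the pooled tissue of 4 mice, so no value has a replicate error, and intervals below cover counting error only. In bulk tissue, fewer cells of a type and less RNA per cell cannot be told apart.

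Keratins form intermediate filaments from pairs of a type I and a type II chain. Adult hepatocytes make a single pair, Krt8 (type II) with Krt18 (type I), which protects them against mechanical and toxic stress. Cells of the bile ducts add Krt7 and Krt19, carry Epcam on their surface, and depend on the transcription factor Sox9. Osteopontin, the product of Spp1, is secreted by duct cells and also by macrophages. Dmbt1 encodes a secreted glycoprotein of mucosal surfaces that binds bacteria, and Ly6d encodes a small lipid-anchored surface protein best known as a marker of early B cells.

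Total counts lay between 23442935 in VS and 28814802 in FS, and levels are given as CPM (counts per 1000000 of the library, scaled by the TMM method with factors between 0.9754 and 1.025). A count of 0 allows up to 3 counts, which is 0.127 CPM (VS), 0.123 (VI), 0.102 (FS) and 0.124 (FI). Hepatocyte markers were present in every library, the 8 listed genes summing to between 156200 CPM in VS and 174700 CPM in FI. A pair of libraries stood apart in genes of other tissues: 13 skeletal muscle genes summed to 78.5 CPM (VS) against 10.2 (VI), 1.12 (FS) and 1.08 (FI), and keratins of stratified epithelium were counted in VI, as described below.

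The sequences before the transcription starts of Krt8, Krt18 and Krt23 are shown because Krt8 and Krt18 had the same order of libraries while Krt23 had another. They were taken from RefSeq on GRCm38.p6, 250 bases each on the strand of the gene, at chr15:102004343-102004592 (minus strand), chr15:102027966-102028215 (plus strand) and chr11:99493121-99493370 (minus strand). Capitals mark matches on either strand to TTCNNNGAA (STAT), TTGCNNAA (C/EBP-like), TGANTCA (AP-1), TGGGAA (RBPJ-like), GGAATG (TEAD-like) or AACAAT (SOX-like).
Krt8: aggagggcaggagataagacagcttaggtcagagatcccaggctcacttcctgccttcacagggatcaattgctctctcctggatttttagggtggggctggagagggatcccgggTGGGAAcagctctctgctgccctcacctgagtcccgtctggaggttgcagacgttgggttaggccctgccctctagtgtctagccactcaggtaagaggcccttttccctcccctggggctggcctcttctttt
Krt18: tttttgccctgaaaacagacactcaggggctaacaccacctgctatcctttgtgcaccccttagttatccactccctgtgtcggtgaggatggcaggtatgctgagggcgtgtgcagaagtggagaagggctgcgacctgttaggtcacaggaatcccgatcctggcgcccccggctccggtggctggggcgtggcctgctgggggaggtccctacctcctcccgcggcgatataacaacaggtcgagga
Krt23: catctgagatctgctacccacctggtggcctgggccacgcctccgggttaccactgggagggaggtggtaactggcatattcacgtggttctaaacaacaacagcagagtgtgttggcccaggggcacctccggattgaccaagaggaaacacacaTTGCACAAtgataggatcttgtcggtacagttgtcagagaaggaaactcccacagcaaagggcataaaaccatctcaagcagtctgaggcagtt

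The Krt8 window held 1 RBPJ-like match, 134 bases before the start, and the Krt18 window held no match to these 6 motifs. Krt23 held 1 C/EBP-like match, 94 bases before the start. Of 32851 windows of the same length, 21.6% held the RBPJ-like and 9.6% the C/EBP-like letters. The E-box letters CANNTG, which 66.2% of windows held, occurred 2 times before Krt8, 1 time before Krt18 and 4 times before Krt23, and no match overlapped another in these windows. GC content was 58.0%, 60.4% and 52.8% for Krt8, Krt18 and Krt23. Sequences were matched for 6 of the 10 genes, the others with an entry being Krt7, Epcam and Spp1. Krt7 alone held 4 GC boxes (GGGCGG, in 32.7% of windows), Epcam held 1, and 1 of the 2 Spp1 starts held a C/EBP-like match. These are matches of letters and say nothing of what binds there.

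Krt8 and Krt18, the hepatocyte pair, were the most abundant of the 10 genes, and both were higher in the fibril libraries. Per length, Krt8 had 99.8 FPKM (VS), 88.7 (VI), 140.0 (FS) and 122.4 (FI), and Krt18 had 99.1, 92.8, 131.0 and 105.9 FPKM in the same order. Krt8 (ENSMUSG00000049382, chromosome 15, 101996711 to 102004342, minus strand) had 4225 counts (VS), 3925 (VI), 7284 (FS) and 5479 (FI). Its order was therefore FS, FI, VS and VI, and each step of that order exceeded its counting interval. The log2 ratio of Krt8 was 0.46 (95% Clopper-Pearson interval 0.41 to 0.52) for FS versus VS and 0.49 (0.43 to 0.55) when FI was set against VI.

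Krt18 (ENSMUSG00000023043, chromosome 15, 102028216 to 102032026, plus strand) lies next to Krt8 on the other strand and had 3251 counts (VS), 3187 (VI), 5284 (FS) and 3676 (FI). Its log2 ratio was 0.38 (0.32 to 0.44) for FS versus VS and 0.22 (0.15 to 0.29) when FI was set against VI. The order of the libraries was the same as for Krt8, although the lowest pair, VS and VI, differed by only 0.07 (0.003 to 0.14). With training, Krt18 was lower in FI than in FS by a log2 ratio of −0.24 (−0.30 to −0.18) and Krt8 by −0.12 (−0.17 to −0.07). None of these ratios reached 2-fold. Of the 50-base stretches in Krt8 transcripts, 26.9% also occur in the pseudogene Krt8-ps, so reads could be split between these copies, whereas 0.72% of those of Krt18 are shared with other genes.

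The balance between the partner chains was close to even in every library. Krt8 made up 50.2% of the summed Krt8 and Krt18 signal per length in VS (49.05% to 51.4%, Clopper-Pearson), 48.9% in VI (47.68% to 50.03%), 51.7% in FS (50.8% to 52.6%) and 53.6% in FI (52.6% to 54.7%). The share in FI lay above the intervals of VS and VI, by a few percentage points. Together both chains accounted for 87.3% of all keratin FPKM for VS, 89.9% for VI, 98.3% for FS and 95.8% for FI.

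**Figure D1:**
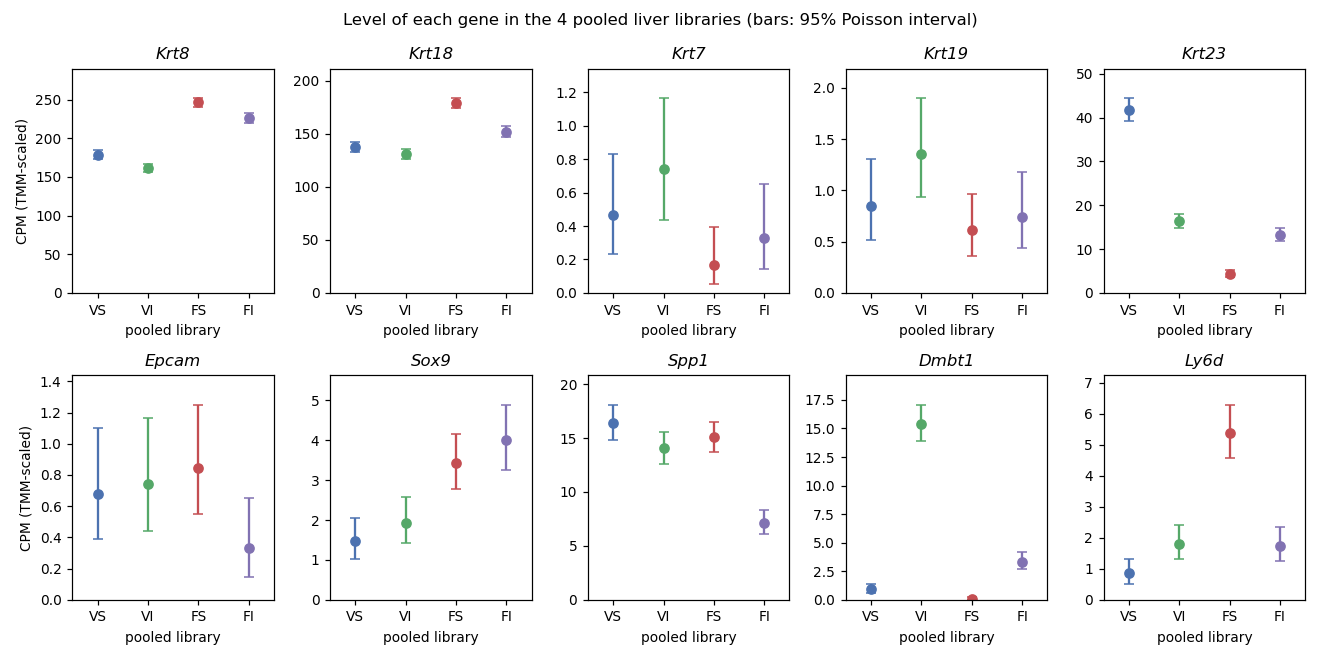
Level of the 10 genes in CPM (vertical axis, from 0, a separate scale for each gene) in the pooled libraries VS, VI, FS and FI; points are the libraries and bars their 95% Poisson intervals. Krt8 and Krt18 are highest in FS, Krt23 is highest in VS at 41.8 CPM, Dmbt1 is highest in VI at 15.4 CPM and Ly6d is highest in FS at 5.39 CPM.

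Krt23, a type I keratin, had the widest range among the 5 keratins, its highest level being 9.49 times its lowest. Krt23 (ENSMUSG00000006777, chromosome 11, 99477974 to 99493137, minus strand) had 987 counts (VS), 397 (VI), 130 (FS) and 320 (FI), or 41.8, 16.3, 4.40 and 13.2 CPM. VS was thus far above the other libraries and FS far below them, while VI and FI lay close together. VS is also the library with the muscle transcripts, whose part in this value was not tested. Between FS and VS the gene was 9.46-fold lower, a log2 ratio of −3.24 (−3.52 to −2.98), and only 0.2% of the genes with at least 1 CPM had a lower ratio. Training went with a lower level in vehicle livers (VI versus VS, −1.36, −1.53 to −1.19) and with a higher level in fibril livers (FI versus FS, 1.58, 1.29 to 1.89). The trained libraries differed little (FI versus VI, −0.30, −0.52 to −0.08).

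The share of Krt23 among type I keratins therefore changed with it. By FPKM, Krt23 formed 21.1% of the type I signal for VS, 9.47% for VI, 2.13% for FS and 7.13% for FI, and Krt18 formed 77.5%, 85.0%, 96.7% and 91.5%. Type I chains summed to 127.8 FPKM (VS), 109.2 (VI), 135.5 (FS) and 115.7 (FI), and type II chains to 100.2, 92.6, 140.1 and 122.7. The ratio of type I to type II was 1.28 (VS), 1.18 (VI), 0.967 (FS) and 0.943 (FI), so the excess of type I chains was found in the vehicle libraries. No 50-base stretch of Krt23 was shared with another gene.

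Krt7 and Krt19, the duct keratins, were close to the limit of detection. Krt19 (ENSMUSG00000020911, chromosome 11, 100140810 to 100148665, minus strand) had 20 counts (VS), 33 (VI), 18 (FS) and 18 (FI). Krt7 (ENSMUSG00000023039, chromosome 15, 101411043 to 101430313, plus strand) had 11, 18, 5 and 8 counts. Both had their highest count in VI, and no step in the order of the libraries exceeded its counting interval for either gene. The log2 ratio of Krt19 was 0.66 (−0.17 to 1.56) for VI versus VS and −0.85 (−1.78 to 0.01) when FI was set against VI. Together Krt7 and Krt19 formed between 0.159% of keratin FPKM in FS and 0.512% in VI.

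Epcam, an adhesion protein of duct cells, was as rare. Epcam (ENSMUSG00000045394, chromosome 17, 87635979 to 87651106, plus strand) had 16 counts (VS), 18 (VI), 25 (FS) and 8 (FI). FI was lowest, with a log2 ratio against FS of −1.30 (−2.72 to −0.16), while no step between neighbours in the order FS, VI, VS and FI exceeded its interval. The counts of Krt7, Krt19 and Epcam summed to 1.99 CPM (95% Poisson interval 1.46 to 2.65) for VS, 2.83 (2.20 to 3.59) for VI, 1.63 (1.20 to 2.16) for FS and 1.41 (0.973 to 1.96) for FI. A change in this sum between VS and FS was not detectable at this depth, whereas the interval of VI lay above those of FS and FI. Krt7, Krt19 and Epcam were thus represented by few reads, and most of the signal of the 10 genes came from the hepatocyte keratins.

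Sox9, which directs duct development, was higher in both fibril libraries. Sox9 (ENSMUSG00000000567, chromosome 11, 112782224 to 112787760, plus strand) had 35 counts (VS), 47 (VI), 101 (FS) and 97 (FI), or 1.48, 1.93, 3.42 and 4.01 CPM. The fibril libraries did not overlap the vehicle libraries in their Poisson intervals, and within each pair the libraries did. Its log2 ratio stood at 1.19 (0.64 to 1.81) for FS versus VS and 1.05 (0.54 to 1.59) when FI was set against VI, but 0.38 (−0.28 to 1.05) for VI versus VS and 0.23 (−0.19 to 0.65) when FI was set against FS.

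Spp1, which encodes osteopontin, was lowest in FI. Spp1 (ENSMUSG00000029304, chromosome 5, 104435118 to 104441050, plus strand) had 387 counts (VS), 342 (VI), 445 (FS) and 173 (FI), or 16.4, 14.0, 15.1 and 7.15 CPM. In the order VS, FS, VI and FI, the step from VI down to FI exceeded its interval, with FI versus VI at −0.97 (−1.25 to −0.71) and FI versus FS at −1.07 (−1.34 to −0.82). Of its 50-base stretches, 11.6% are shared with the overlapping gene model Gm42793. VI was slightly below VS at −0.22 (−0.44 to −0.01). Macrophage markers, which were listed because macrophages also make osteopontin, summed to 165.1 CPM (VS), 201.5 (VI), 262.2 (FS) and 262.7 (FI) over 9 genes found. The sum is carried by Clec4f, a Kupffer cell lectin, with 126.2 CPM in FS and 135.7 in FI. Of the 8 macrophage genes with at least 1 CPM, 5 were lower in FI than in FS and 3 were higher. Csf1r at −0.31 (−0.44 to −0.18) and Vsig4 at −0.22 (−0.36 to −0.09) were lower beyond their intervals. Trem2 (−0.40), Cd68 (−0.11) and Cd9 (−0.0006) were lower within theirs. Marco at 0.43 (0.22 to 0.63) and Clec4f at 0.10 (0.04 to 0.17) were higher beyond their intervals, and Timd4 at 0.20 (−0.08 to 0.48) was higher within its interval. Gpnmb, below 1 CPM, had 29 counts in FS and 0 in FI, and the part of macrophages in the Spp1 values was not tested. The 8 listed receptors of osteopontin, which are Cd44 and integrin chains, held no gene beyond 2-fold in any comparison, with medians between −0.02 in FI versus VI and 0.23 in FS versus VS. Among them Itgb3, the integrin beta 3 chain, had 5.76 CPM (VS), 7.18 (VI), 10.0 (FS) and 13.6 (FI), and Cd44 had 4.87, 5.54, 8.23 and 5.95 CPM.

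Dmbt1 had the largest ratios of the 10 genes, higher in each trained library than in its sedentary counterpart and lower in each fibril library than in its vehicle counterpart. Dmbt1 (ENSMUSG00000047517, chromosome 7, 131032076 to 131121626, plus strand) had 22 counts (VS), 376 (VI), 2 (FS) and 81 (FI), or 0.932, 15.4, 0.0677 and 3.35 CPM. All neighbours in the order VI, FI, VS and FS differed beyond their intervals. Its log2 ratio stood at 4.02 (3.43 to 4.74) for VI versus VS and −2.20 (−2.57 to −1.85) when FI was set against VI. Against the 2 counts of FS, the ratio was 5.31 (3.73 to 8.70) for FI and −3.49 (−6.91 to −1.76) relative to VS, and these wide intervals are set by the low count. The gene overlaps Fgfr2 on the opposite strand, and no source used here states whether the counting used strand. Fgfr2, a growth factor receptor, had between 29.02 and 33.7 CPM in the 4 libraries, and its highest level was in VS.

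Ly6d was highest in the fibril library without training. Ly6d (ENSMUSG00000034634, chromosome 15, 74762056 to 74763620, minus strand) had 20 counts (VS), 44 (VI), 159 (FS) and 42 (FI), or 0.847, 1.81, 5.39 and 1.74 CPM. FS stood above the others, the difference of FI from VI was within its interval (−0.06, −0.70 to 0.59), and VS was lowest. Its log2 ratio stood at 2.64 (1.99 to 3.42) in FS versus VS, 1.07 (0.30 to 1.93) for VI versus VS and −1.62 (−2.16 to −1.13) when FI was set against FS. VI is also the library with keratins of stratified epithelium, whose part in its Ly6d value was not tested.

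B cell markers had other orders than Ly6d. Cd79a, a part of the B cell receptor, had 32 counts (VS), 10 (VI), 26 (FS) and 19 (FI), and Vpreb3 had 71, 86, 15 and 22. Of the 5 genes with at least 1 CPM in the list of B cell and plasmacytoid dendritic cell markers, all were lower in FS than in VS, with a median log2 ratio of −0.62. Among 25 genes of the Ly6 family and its relatives, 4 reached 1 CPM. Ly6e, the most abundant, had 189.6 CPM (VS), 148.7 (VI), 285.8 (FS) and 174.9 (FI), also highest in FS. Ly6a had 36, 17, 45 and 31 counts, and Gpihbp1, the anchor of lipoprotein lipase on capillaries, had between 16.6 and 23.2 CPM.

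**Figure D2:**
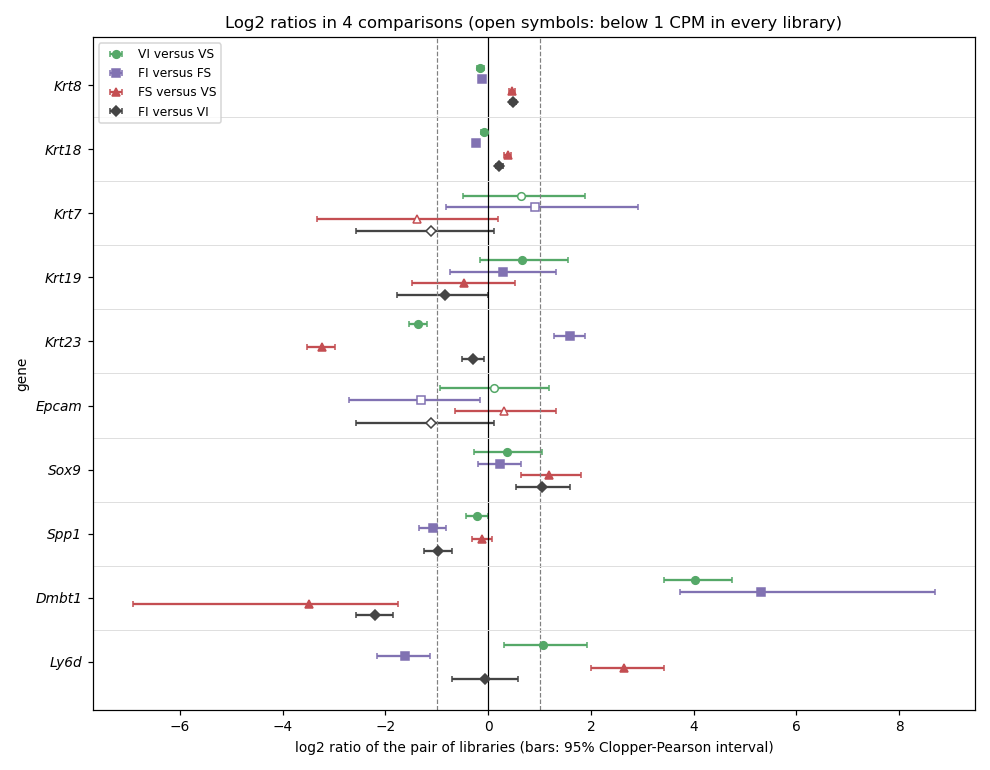
Log2 ratio (horizontal axis) of each gene (vertical axis) for the training comparisons (VI versus VS, and FI versus FS) and the fibril comparisons (FS against VS, and FI against VI); bars are 95% Clopper-Pearson intervals for counting error, dashed lines mark a 2-fold difference, and open symbols mark Krt7 and Epcam, which stayed below 1 CPM. Krt23 and Ly6d lie on opposite sides of 0 in the training comparisons VI versus VS and FI versus FS.

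Of the 10 genes, 8 reached 1 CPM in at least 1 library, and Krt7 and Epcam did not. Among these 8, the genes beyond 2-fold were Krt23, Dmbt1 and Ly6d in VI versus VS, 2 of them higher and 1 lower, where 3.44% of the 12180 genes with at least 1 CPM were beyond 2-fold (1.54% higher and 1.9% lower). In FI versus FS they were Krt23, Spp1, Dmbt1 and Ly6d, 2 higher and 2 lower, against 4.28% of all genes (1.75% higher and 2.53% lower). In FS versus VS they were Krt23, Sox9, Dmbt1 and Ly6d, 2 higher and 2 lower, against 5.8% (3.6% higher and 2.2% lower). In FI versus VI they were Sox9, higher, and Dmbt1, lower, against 4.54% (2.59% higher and 1.95% lower). Since the 10 genes were named with these ratios known, the shares of all genes stand only as background. The median log2 ratio of the 8 genes lay between −0.18 in FI versus VI and 0.15 in VI versus VS, where the medians of all genes were 0.01 and 0.004. The comparisons made against VS have that library in common, and those made of FI have FI in common.

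The training response of a gene can be compared between vehicle and fibril livers, since VI versus VS and FI versus FS share no library. For Krt23 the fibril ratio was above the vehicle ratio by 2.94 (2.60 to 3.28, Wald interval from the 4 counts). The same difference was −2.69 (−3.59 to −1.80) for Ly6d, −0.85 (−1.18 to −0.52) for Spp1 and −0.16 (−0.26 to −0.07) for Krt18. The differences for Krt8 (0.03, −0.05 to 0.11), Sox9 (−0.15, −0.89 to 0.60), Krt19 (−0.38, −1.60 to 0.85), Krt7 (0.27, −1.60 to 2.15), Epcam (−1.42, −2.89 to 0.06) and Dmbt1 (1.29, −0.62 to 3.21) had intervals that include 0. For Krt8 the interval is narrow, and for the others it leaves room for sizeable differences. The sign for Dmbt1 turned on deposited FPKM with a pseudocount of 0.1 (−0.86). Among all genes with at least 1 CPM, 13 were, like Krt23, more than 2-fold lower in VI than in VS and more than 2-fold higher in FI than in FS. The reverse, as in Ly6d, was found for 11 genes, and each number counts the gene itself.

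**Figure D3:**
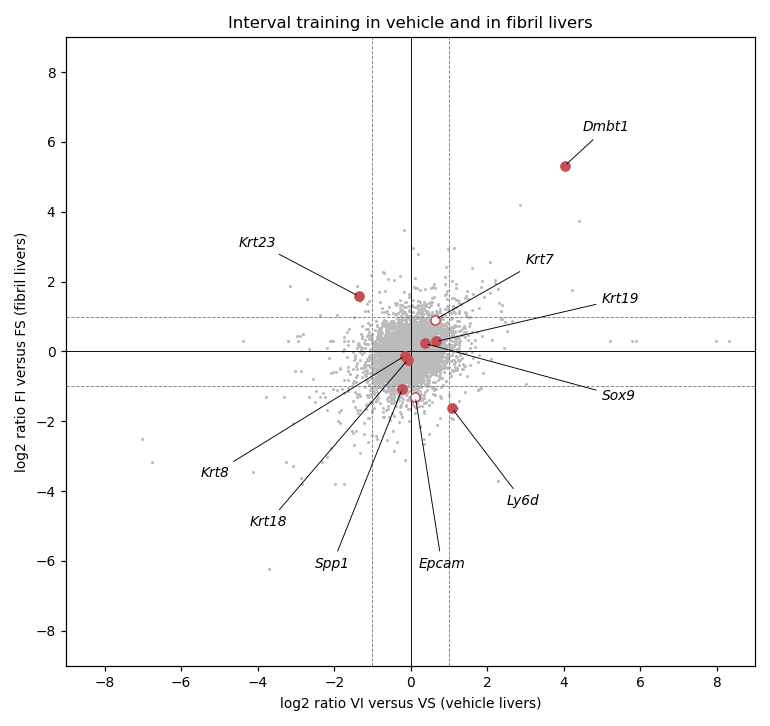
Log2 ratio VI versus VS (horizontal axis) against FI versus FS (vertical axis) for the 12180 genes with at least 1 CPM (grey) and the 10 genes described (red, open where below 1 CPM); dashed lines mark 2-fold. Dmbt1 lies at the upper right at 4.02 and 5.31, Krt23 at the upper left and Ly6d at the lower right.

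The genes closest in pattern were sought among 8970 named genes with at least 5 CPM in 1 library, by the Euclidean distance of log2 CPM centred over the 4 libraries. For Krt23 these were Dio3os (distance 0.56), a transcript at the deiodinase 3 locus, Osbpl5 (0.88), an oxysterol-binding protein, and Unc79 (0.95). Dio3os had 460 counts (VS), 298 (VI), 87 (FS) and 237 (FI), the same order as Krt23. For Ly6d they were Creb3l2 (0.76), a transcription factor held in the endoplasmic reticulum, Ifi27l2b (0.81) and Socs3 (0.83), the feedback inhibitor of STAT3 signalling. Socs3 had 225, 296, 809 and 369 counts in VS, VI, FS and FI. For Dmbt1 the distances were larger, the nearest being the adrenergic receptor gene Adra2a at 2.86, followed by Pdk4 at 3.20. With 4 points, such likeness is a description only.

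The keratin family outside the 5 genes above was searched in full. Of the 46 other keratin genes, 34 had no count in any library, and the number with a count was 10 for VI and 4 for each other library. Krt10, a keratin of upper skin layers, had 61, 78, 70 and 56 counts in VS, VI, FS and FI, without a step beyond 2-fold. Krt4 and Krt13, which pair in stratified mucosa such as that of the oesophagus, had 165 and 130 counts in VI and 0 in each other library. Measured against 3 counts in a library at 0, Krt4 was 53.3-fold and Krt13 42.0-fold higher in VI than in VS, without counting error in VI. The lower Clopper-Pearson limits of their log2 ratios were 5.42 and 5.07. The basal keratins Krt5, Krt15 and Krt14 had 24, 11 and 7 counts in VI and 0 elsewhere, and Krt78 had 6; these were named after their values were seen. Loricrin (Lor), a protein of the cornified layer, had 20 counts (VS), 64 (VI), 24 (FS) and 29 (FI). The 10 squamous markers together summed to 19.3 CPM in VI and to between 3.42 and 3.51 CPM in the other libraries, with Krt1 and Ivl at 0 in all.

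The library with these keratins is also the one in which Dmbt1, Krt7 and Krt19 had their highest counts, and the part of the squamous signal in those values was not tested. In FI, where Dmbt1 had 81 counts, Krt4 and Krt13 had 0. Muc1, St14 and Mmp7, duct and mucosal genes below 1 CPM that were picked after their values were seen, also had their highest count in VI, with Muc1 at 8, 21, 8 and 7 counts in VS, VI, FS and FI, St14 at 7, 20, 5 and 6, and the matrix protease gene Mmp7 at 1, 12, 1 and 6. The list of 30 duct markers from which they were picked summed to 486.3 CPM (VS) and 475.8 (VI). Of its 18 genes with at least 1 CPM, 10 were above 0 and 8 below 0 in VI versus VS, with a median log2 ratio of 0.06. Pancreatic and mesothelial markers gave little signal. Of 12 acinar genes 10 had no count at all, and the 9 mesothelial genes summed to at most 1.95 CPM. Of the 8 gallbladder and mucinous duct markers only Sox17, which endothelium also expresses, reached 1 CPM, with between 52 and 55 counts in each library.

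**Figure D4:**
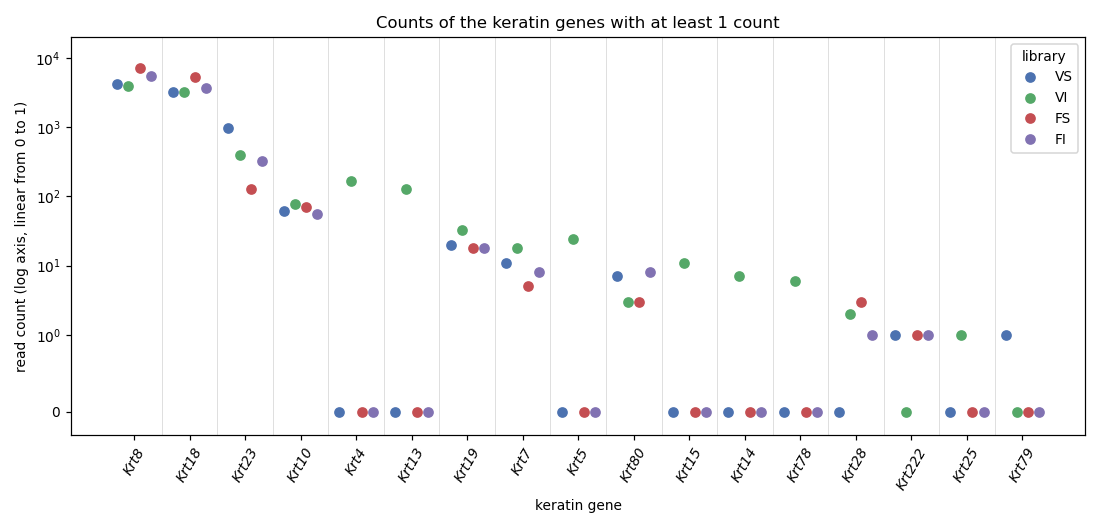
Read counts (vertical axis, logarithmic above 1 and linear between 0 and 1) of every keratin gene with at least 1 count (horizontal axis) in the libraries VS, VI, FS and FI, 1 point per library. Krt8 and Krt18 lead in every library, Krt23 decreases in the order VS, VI, FI and FS, and Krt4, Krt13, Krt5, Krt15, Krt14 and Krt78 have counts in VI only.

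Other markers of bile ducts were taken from a list made by function. The list was made with earlier results of these data known, so the shares of all genes stand only as background. Of the 30 duct markers 18 reached 1 CPM. In FS versus VS 3 of them were more than 2-fold higher and 0 lower, where 3.6% of all genes were higher and 2.2% lower, and the median log2 ratio was 0.24 against 0.02 for all genes. The 3 genes were Slc10a2, the bile acid importer of duct cells, at 1.25, the adhesion gene Cdh1 at 1.11 and Gpr160 at 1.39, the last with 34 counts in FS. In FI versus FS 0 were higher and 4 lower, namely Gpr160 at −1.30, Dcdc2a at −1.15, Pkhd1 at −1.06 and Bicc1 just past 2-fold, where 1.75% of all genes were higher and 2.53% lower. The median was −0.25 against 0.002. The ciliary genes Pkhd1 and Bicc1, which are mutated in cystic disease, had 128 and 52 counts in FS and 50 and 21 in FI. In VI versus VS none of the 18 was beyond 2-fold, with a median of 0.06, and in FI versus VI 1 was higher (Slc10a2, 2.22) and 2 lower (Cd24a and Bicc1), with a median of −0.22, where 2.59% of all genes were higher and 1.95% lower. The most abundant of the list were Tm4sf4, with between 139.6 and 165.7 CPM, and Aqp1, a water channel also made by endothelium, with between 89.9 and 116.2 CPM.

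Genes of ductular reaction and progenitors were listed next. Of 16 genes 7 reached 1 CPM, and the only one beyond 2-fold in FS versus VS was Tnfrsf12a, the receptor of TWEAK, with 11.1 CPM (VS), 15.5 (VI), 22.5 (FS) and 23.5 (FI), where 5.8% of all genes were beyond 2-fold. Afp, a fetal liver gene, had 58, 56, 96 and 43 counts in the same order. Axin2, a Wnt target, was lower in FI than in VI at −1.07, the only one of the 7 beyond 2-fold there, against 4.54% of all genes. The median log2 ratio of the 7 genes lay between −0.25 and −0.04 in the 4 comparisons.

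Pathways that set duct identity were also listed. Of 13 Notch genes 9 reached 1 CPM, and Hes1, the main Notch target, was the only one beyond 2-fold, with 10.2 CPM (VS), 4.93 (VI), 10.1 (FS) and 4.18 (FI). Hes1 was thus lower in both trained libraries (−1.04 and −1.27), as 1 gene of 9 in comparisons where 3.44% (VI versus VS) and 4.28% (FI versus FS) of all genes were beyond 2-fold, while its relatives Notch2 (between 30.8 and 38.2 CPM) and Jag1 (between 1.46 and 2.34 CPM) were within 2-fold. Of 13 YAP genes 11 reached 1 CPM, with medians between 0.05 and 0.26. The YAP target Ctgf had 2.67 CPM (VS), 4.19 (VI), 5.12 (FS) and 8.93 (FI), and was beyond 2-fold in FI versus VI at 1.09. Tead2 was so in VI versus VS at 1.16, on 11 and 26 counts, each as 1 gene of 11 against 4.54% and 3.44% of all genes, and Yap1 itself had between 55.7 and 61.2 CPM.

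Partners of the keratin filaments differed among themselves. Of 16 genes of desmosomes, linkers and other filaments 15 were found and 13 reached 1 CPM. Of the 13, 9 were lower in FS than in VS, with a median of −0.25 against 0.02 for all genes. Vim, the filament of mesenchymal cells, had 8.47 CPM (VS), 8.37 (VI), 12.2 (FS) and 10.3 (FI), the order of Krt8 and Krt18, and was picked after its values were seen. The desmosomal cadherin Dsg2 had 106.8 CPM (VS), 86.7 (VI), 76.8 (FS) and 58.3 (FI), and desmoplakin (Dsp) had 76.8, 74.1, 50.4 and 50.1 CPM. Periplakin (Ppl), a linker, had 13.3, 12.1, 17.1 and 33.7 CPM. At 1.48 it was the only gene of the 13 beyond 2-fold in FI versus VI, against 4.54% of all genes. Des, the muscle and stellate cell filament, was lower than in VS both in FS at −1.12 and in VI at −1.005. It was the only gene of the 13 beyond 2-fold in these comparisons, against 5.8% and 3.44% of all genes. In both, 11 of 11 skeletal muscle genes were lower beyond 2-fold. Of 9 constituents of Mallory-Denk bodies, the keratin aggregates of injured hepatocytes, 8 reached 1 CPM. Ubb and Sqstm1, the most abundant, had between 417.9 and 451.3 CPM and between 329.7 and 402.3 CPM. The stress genes of that list moved most, with Hspa1b at 49.5 CPM (VS), 17.9 (VI), 17.3 (FS) and 7.73 (FI), and Hspb1 at 13.7, 6.69, 4.81 and 22.2 CPM. Hspb1 had the same signs as Krt23 in VI versus VS, FS versus VS and FI versus FS, and the opposite sign in FI versus VI at 1.72. The paper's qPCR on livers of individual mice found Hspb1 higher with training or amyloid alone than in VS, and Hspa1b unchanged. Its Western blots found more total HSPB1 protein with training, and it reported higher HSPB1 expression with amyloid. In the pooled libraries Hspb1 was instead lower, at −1.03 in VI versus VS and −1.51 in FS versus VS. Hspa1b was lower there too, at −1.46 and −1.51. In both kinds of data Hspb1 was higher in FI than in VS. VS is also the library with the muscle transcripts, whose part in these values was not tested.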

How the data were processed

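Liver RNA was measured in 4 pooled libraries, 1 for each of VS, VI, FS and FI. The authors deposited read counts per gene without normalization, and FPKM values, which a recalculation from count, gene length and library total matched with a ratio of 1. The submitters' processing notes name fastp 0.23.2, STAR 2.5, HTSeq 0.6.1 and mm10, and the authors used edgeR, whose dispersion setting for single libraries no source used here states. Start and end of 6 of the 10 genes equal those in the GENCODE annotation of GRCm38.

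Counts were scaled by TMM in edgeR 4.0.16 (R 4.3.3), and DESeq2 1.42.0 gave other size factors. To form log2 ratios, 0.5 counts were added to each value, intervals were Clopper-Pearson at 95%, and the filter asked for 1 CPM in any library. Poisson intervals are exact. No molecular identifiers are described, so intervals cover counting error only. With 1 library per group no test was made, and a 2-fold difference served for counts. The code for ratios and intervals was checked on simulated counts. Members and lists were chosen with earlier results of these data known. Named were all 10 members, the 3 genes nearest in pattern to each of the 3 members of widest range, and, by the rule, of each list the 2 genes with the highest mean CPM and up to 4 with the largest ratio, of which those beside a member's result are printed. A gene that the rule names is not reported here. Genes counted in groups of 5 or fewer were also named, after their values were seen (Cdh1, Pkhd1 and Bicc1 among them). Figures used Python 3.11.15 and matplotlib 3.10.9.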

Additional observations from a re-analysis of the deposited data

Results flagged for a closer look

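Krt23 and Ly6d were marked because their training ratios had opposite signs in vehicle and fibril livers, each with a counting interval that excludes 0. For Krt23, FI versus FS exceeded VI versus VS by 2.94 on the log2 scale, with 1.58 in fibril and −1.36 in vehicle livers. For Ly6d the difference was −2.69, with −1.62 in fibril and 1.07 in vehicle livers, and the vehicle ratio rests on 20 and 44 counts. That ratio uses VI, the library with keratins of stratified epithelium, whose part in it was not tested. With 1 pooled library per group, neither difference was tested.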

How the results depend on the processing

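Of the 17 ratios beyond 2-fold, Krt7 and Epcam included, all kept their direction under the 6 other scalings, priors and pseudocounts (102 values), and 86 of the 102 stayed beyond 2-fold. The number of genes beyond 2-fold changed with the FPKM pseudocount: with a pseudocount of 1 it was 2 in FI versus FS, 2 in FS versus VS and 1 in FI versus VI. In FI versus VI, where 2 genes were beyond 2-fold, the number was 1 with a pseudocount of 0.1, 1 with a filter at 5 CPM and 1 with the whole counting interval beyond 2-fold, and 4 with no filter and 4 at a fold of 1.5. The pseudocount lowers ratios of low genes by its construction. The differences between training ratios were recomputed under alternatives chosen after seeing the data: with a pseudocount of 1 that of Krt23 was 2.55 and that of Dmbt1 was −0.996, and with 0.1 that of Dmbt1 was −0.86, the opposite sign of 1.29. With the mean in place of the median, or with DESeq2 size factors, all 104 list values stayed within the central ratios of their list's genes, the smallest lists left out. No paired analysis was possible because each group has 1 library. Krt7, Krt19 and Epcam, on at most 33 counts, had ratios whose intervals are too wide to show small differences.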

Other observations

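Tff3, Cela2a, Gpnmb and Ly6k had, like Ly6d, their highest count in FS, and the last pair was picked after its values were seen. Tff3, a trefoil peptide of mucus-secreting cells, had 7 counts (VS), 5 (VI), 72 (FS) and 17 (FI), and Cela2a, a pancreatic elastase, had 10, 17, 76 and 14. Gpnmb, a gene of lipid-laden macrophages, had 29 counts in FS and 0 in each other library, and Ly6k had 3, 1, 14 and 4. The other genes of the acinar list did not accompany Cela2a, since 10 of the 12 had no count in any library.

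Intestinal markers other than Tff3 were led by Fabp2, with 1843 (VS), 1159 (VI), 1059 (FS) and 916 (FI) counts, and Lgals4, with 1244, 1133, 798 and 840. Of the 12 listed intestinal genes only 3 (Tff3, Fabp2 and Lgals4) reached 1 CPM. No count in any library was found for 5 of them (Cdx1, Cdx2, Sis, Krt20 and Reg3b). Neutrophil markers summed to 2.63 CPM (VS), 3.20 (VI), 17.6 (FS) and 13.2 (FI). Prtn3 alone had 0.593, 1.11, 13.1 and 10.1 CPM in the same order, which is most of the sum in FS and FI only. Stellate cell markers summed to between 210.3 and 245.6 CPM and endothelial markers to between 150.8 and 178.0 CPM.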
